A study of Mus musculus with 19 samples.

Results

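The chaperones of the endoplasmic reticulum (ER) and the genes of the unfolded protein response were followed in a fast hindlimb muscle, the EDL (extensor digitorum longus), of wild-type and HSALR mice. The set of 31 genes was given as a list of symbols, drawn up with results of these data known. Each gene was read through the brightest of its probe sets with 1 gene symbol, by mean log2(value + 16) over all 19 samples. All 31 genes had such a probe set, and all 31 passed the filter on dim probe sets, among 18193 named genes on the array and 11533 tested. Wild-type mice were FVB animals aged 19 weeks (9 samples). HSALR mice were FVB animals of the same age that carried the transgene of HSALR line 20 b (10 samples), so the comparison rests on 1 transgenic line. The transgene is a human skeletal actin gene with a long CTG repeat, active in skeletal muscle, and the line serves as a model of myotonic dystrophy. Each sample was measured on 1 Affymetrix array, and precision is limited by the number of arrays. Whether the samples of a group were separate animals is not stated, and the p-values therefore reflect sample-to-sample spread that may be technical.

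The ER folds secreted and membrane proteins. Hspa5 (BiP) and Hsp90b1 (Grp94) bind unfolded chains, protein disulfide isomerases form disulfide bonds, and calnexin and calreticulin hold glycoproteins. Chains that fail to fold are passed back to the cytosol for degradation. When unfolded chains accumulate, the sensors Ern1 (IRE1), Atf6 and Eif2ak3 (PERK) switch on transcription through Xbp1, cleaved Atf6 and Atf4, and many genes described here are known targets. In muscle the ER is continuous with the sarcoplasmic reticulum, the calcium store. Splicing of Xbp1, cleavage of Atf6 and phosphorylation are not read by these probe sets.

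Some of these genes share a short promoter sequence, the ER stress response element (ERSE), shown here because it was first defined in chaperone genes such as Hspa5. ERSE was searched as CCAAT and CCACG with 9 free bases between them, on both strands of RefSeq promoter windows (GRCm38.p6, from 250 bases before to 50 after each gene start). A window was found for 27 of the 31 genes, and none for Atf6, Manf, Hyou1 and Derl1. The element was present in 8 of those 27 genes and in 39 of all 32851 windows (0.119%). The matches follow, each read from CCAAT to CCACG, with the letters fixed by the search in capitals and the free spacer in lower case. The orientation is relative to the direction of the gene, not to the chromosome.
Hspa5, 65 to 47 bases before the start, same direction as the gene: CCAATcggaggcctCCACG
Hsp90b1, 212 to 194 bases before the start, same direction as the gene: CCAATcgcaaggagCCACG
Hsp90b1, 107 to 89 bases before the start, opposite to the gene: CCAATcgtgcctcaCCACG
Canx, 145 to 127 bases before the start, same direction as the gene: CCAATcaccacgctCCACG
Calr, 162 to 144 bases before the start, opposite to the gene: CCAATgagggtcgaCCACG
Creld2, 126 to 108 bases before the start, opposite to the gene: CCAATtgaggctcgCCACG
Pdia6, 98 to 80 bases before the start, same direction as the gene: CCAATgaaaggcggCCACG
Dnajc3, 105 to 87 bases before the start, same direction as the gene: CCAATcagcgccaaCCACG
Syvn1, 44 to 26 bases before the start, same direction as the gene: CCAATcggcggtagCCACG
Hsp90b1 held the element 2 times, in opposite orientations. A related form, ERSE-II (ATTGG and CCACG with 1 free base between them), was present in Herpud1 and Dnajb11 and in 12 windows (0.0365%). The shorter words inside these elements were common. CCAAT occurred in 22 of the 27 genes and 37.4% of all windows, and CCACG in 22 genes and 32.8% of windows. The UPRE form TGACGTGG (0.676% of windows) and the ATF4 element TGATGNAAT (0.965% of windows) were found in 0 of the 27. A match describes letters only.

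The 250 bases before the gene start are printed for Hspa5, Hsp90b1 and Canx, which hold ERSE, for Herpud1, which holds ERSE-II, and for Xbp1, which had the smallest p of the 31 and held neither in this window. All are from RefSeq and written 5′ to 3′ on the strand of the gene, which is named as the chromosome strand, with the fixed letters of ERSE and the whole of ERSE-II in capitals.
Hspa5, chr2:34771840-34772089, + strand: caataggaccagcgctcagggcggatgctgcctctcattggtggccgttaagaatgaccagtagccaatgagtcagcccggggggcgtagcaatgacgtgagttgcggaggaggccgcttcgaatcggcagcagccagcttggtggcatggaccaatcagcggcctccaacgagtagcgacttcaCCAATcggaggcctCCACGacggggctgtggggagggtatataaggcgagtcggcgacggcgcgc
Hsp90b1, chr10:86705445-86705694, - strand: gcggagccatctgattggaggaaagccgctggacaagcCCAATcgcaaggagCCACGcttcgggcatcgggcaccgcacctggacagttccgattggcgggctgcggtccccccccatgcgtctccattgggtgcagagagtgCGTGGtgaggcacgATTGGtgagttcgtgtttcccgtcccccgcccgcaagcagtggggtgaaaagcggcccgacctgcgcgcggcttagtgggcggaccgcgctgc
Canx, chr11:50325674-50325923, - strand: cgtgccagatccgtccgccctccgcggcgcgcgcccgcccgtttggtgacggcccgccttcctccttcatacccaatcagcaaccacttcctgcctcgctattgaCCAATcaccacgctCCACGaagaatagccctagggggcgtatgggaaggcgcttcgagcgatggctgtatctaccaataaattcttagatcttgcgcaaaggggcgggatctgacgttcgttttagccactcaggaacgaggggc
Herpud1, chr8:94386179-94386428, + strand: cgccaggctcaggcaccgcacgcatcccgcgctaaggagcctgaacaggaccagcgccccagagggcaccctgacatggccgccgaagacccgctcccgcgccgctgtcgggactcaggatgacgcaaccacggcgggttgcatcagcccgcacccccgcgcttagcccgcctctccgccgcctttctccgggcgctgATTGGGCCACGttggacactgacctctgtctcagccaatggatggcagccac
Xbp1, chr11:5520391-5520640, + strand: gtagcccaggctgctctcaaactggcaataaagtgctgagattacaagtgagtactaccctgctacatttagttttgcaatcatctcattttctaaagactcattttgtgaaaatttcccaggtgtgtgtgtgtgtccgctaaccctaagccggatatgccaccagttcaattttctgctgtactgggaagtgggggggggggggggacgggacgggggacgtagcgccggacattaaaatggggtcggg
In Hsp90b1 the element nearer the start reads in reverse, from CGTGG to ATTGG. The 8 genes with ERSE had log2 folds (HSALR minus wild type) from 0.09 to 0.54, with a median of 0.37. The 19 genes whose window lacked it ranged from -0.22 to 0.69, with a median of 0.34. Among the other genes of the array with an ERSE window, 7 were tested and 0 passed in limma, with a median log2 fold of 0.18.

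In HSALR muscle 6 of the 31 genes were higher than in wild type and 0 were lower. The test was limma on log2(value + 16) with Benjamini-Hochberg adjustment over 22519 probe sets and a false discovery rate of 0.05. Over all 11533 genes tested, 3.11% passed higher and 2.31% lower. The 6 were Xbp1, the transcription factor of the IRE1 branch, Manf, a secreted stress-induced factor, the chaperones Hspa5 and Hyou1, the lectin Canx, and Derl2 of the degradation machinery. Their rises were modest, from 1.32-fold in Canx to 1.68-fold in Manf. Of the 31 genes, 29 had a log2 fold above 0, against 60.4% of all genes tested, and 17 were higher at an unadjusted p under 0.05, against 13.8% of all genes. At that p 0 were lower, against 7.47% of all genes. The median log2 fold was 0.35 for the 31 genes and 0.05 for all genes.

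These differences were uneven across HSALR samples. HSALR replicates 9 and 10 carried the highest signals of 23 of the 31 genes, against 27.4% of all genes. HSALR replicate 8 was highest in another 7 (22.6%), near its share of all genes (23.7%). The median gene of the set lay 0.96 above its wild-type mean (log2) in replicate 9, 0.93 in replicate 10 and 0.67 in replicate 8. The remaining 7 HSALR samples lay between -0.19 (replicate 5) and 0.39 (replicate 3), and wild-type samples between -0.11 and 0.20. Over all genes the same median stood at 0.14 in replicate 9, 0.20 in replicate 10, 0.31 in replicate 8 and -0.27 in replicate 5. After quantile normalization, which gives every array the same distribution of values, replicates 9 and 10 stood at 0.72 and 0.61. Replicate 8 stood at 0.34, the other 7 HSALR samples at 0.01 to 0.27, and wild-type samples at -0.06 to 0.08.

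**Figure D1:**
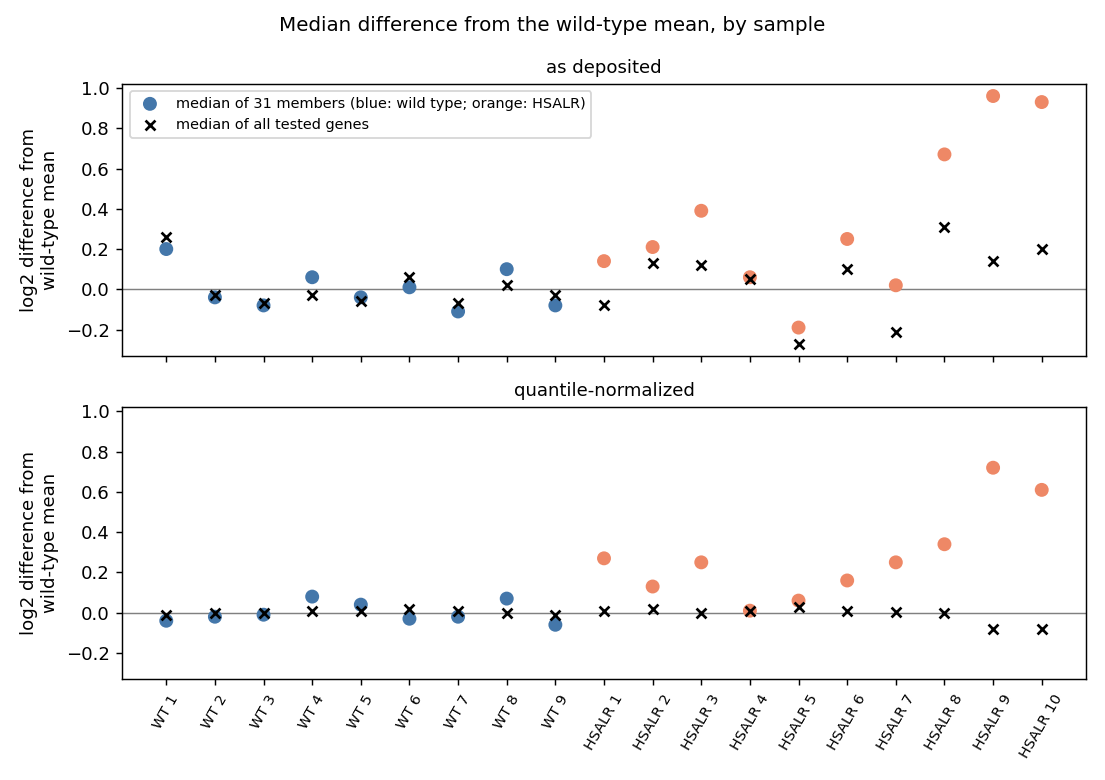
For each sample, on the x axis, the median over the 31 genes of the log2 difference from the wild-type mean (circles, blue for 9 wild-type and orange for 10 HSALR samples) and the same over all 11533 tested genes (crosses), as deposited above and quantile-normalized below. HSALR replicates 9 and 10 are highest in both panels, at 0.96 and 0.93 as deposited and 0.72 and 0.61 once quantile-normalized.

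Without HSALR replicates 9 and 10, Xbp1 and Derl2 still passed and the other 4 did not (2 of 31 higher and 0 lower, against 2.09% and 1.84% of all genes). The log2 fold of 29 of the 31 genes was lower without these samples, and the median was 0.20. With these samples out and quantile normalization, 10 genes were higher and Atf4 was lower (5.7% of all genes higher and 6.04% lower). These 10 were Hspa5, Canx, Xbp1, Ddit3, Manf, Sdf2l1, Edem1, Hyou1, Derl2 and Ssr1. With all samples and quantile normalization 11 were higher and Atf4 was lower (6.96% of all genes higher, 8.51% lower), and centring every array on its own median gave 9 higher and 0 lower (4.92% and 5.59% of all genes). The latter counts add Sdf2l1, Dnajb9 and Edem1 to the 6 in both settings, and Hsp90b1, Ssr1 and the fall of Atf4 after quantile normalization. The log2 3'/5' ratio of control probe sets, a sign of RNA quality, was -0.15 to 0.02 in wild type and -0.17 to -0.03 in HSALR. In a fit that included it 17 genes were higher and 0 lower (8.51% and 2.3% of all genes). They were the 6 and Hsp90b1, Pdia3, Pdia4, Pdia6, P4hb, Ppib, Creld2, Sdf2l1, Edem1, Eif2ak3 and Ssr1. Without the filter on dim probe sets 3 were higher and 0 lower (1.52% and 1.18%). Leaving out single samples moved the count between 3 and 10. It was 10 without HSALR replicate 5, and 3 without HSALR replicate 3, 9 or 10 or without wild-type replicate 2, 3 or 7. The count over all 11533 genes moved the same way. It was 853 higher without HSALR replicate 5 and 248 to 279 in the fits that gave 3, against 359 with all samples. Xbp1, Manf and Derl2 passed in all 19 fits that left out 1 sample, Canx in 13, and Hspa5 and Hyou1 in 8 each.

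**Figure D2:**
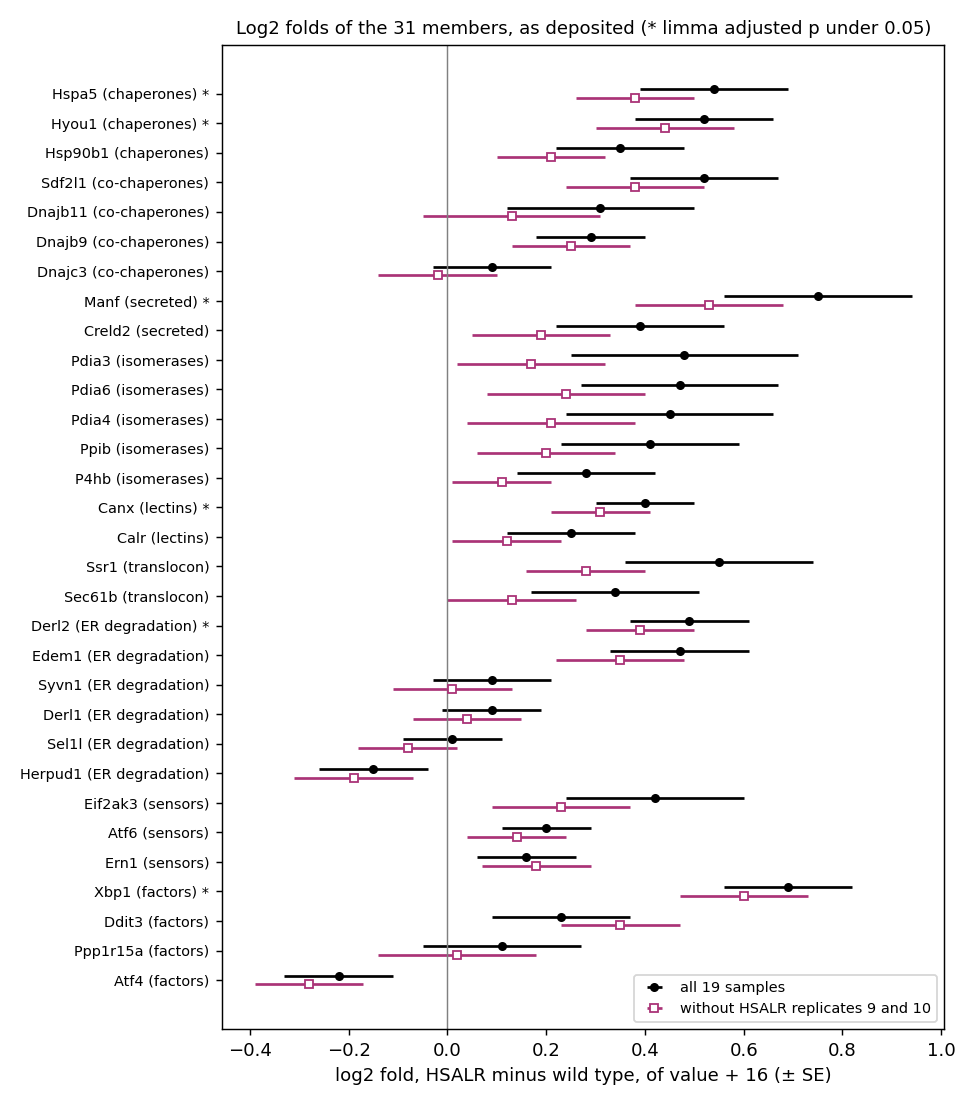
Log2 folds of the 31 genes (x axis, HSALR minus wild type on the log2(value + 16) scale, with SE), grouped by role on the y axis, with all 19 samples (filled) and without HSALR replicates 9 and 10 (open), as deposited. Most open points lie closer to 0, as in Pdia3 (0.48 and 0.17). Among those that moved less were Xbp1 (0.69 and 0.60) and Derl2 (0.49 and 0.39), and also Canx (0.40 and 0.31) and Hyou1 (0.52 and 0.44).

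Replicates 9 and 10 also stood apart in markers of macrophages and fibroblasts. The summed signal of 18 macrophage markers was 25120 and 28485 in these samples. It was 5180 to 8661 in wild type and 4464 to 12407 in the other 8 HSALR samples. For 13 fibroblast markers with a probe set it was 74335 and 75766, against 21798 to 38241 in wild type and 18334 to 42061 in the other 8. For 18 genes of collagen folding it was 17025 and 18390, against 7079 to 9005 and 5610 to 11354. Replicates 9 and 10 also had the highest sums for further oxidative folding genes (8380 and 8707, against at most 7739 elsewhere) and glycosylation genes (18405 and 19053, against 16809). The same held for integrated stress response targets (26302 and 27368, against 25024). There Ddit4 (5326 and 6611, wild-type median 1536) and Cebpb (5223 and 4998, against 2601) were high. Ddit4 and Cebpb were chosen after their values were seen. For further degradation, translocation and sensor genes replicate 8 had the highest sum (25943, 32607 and 10799). The 14 fast-fibre markers all passed the filter, with sums of 163614 and 168830 in replicates 9 and 10 and 162552 to 189632 in wild type. The other 8 HSALR samples had sums of 147704 to 181332. The wild-type medians of these markers, 9812 to 15964, lie high against the array maxima of 13979 to 17163. Whether this limited a rise in their sums was not tested. In the comparison of groups 0 of 14 passed as deposited and 4 were lower after quantile normalization (Casq1, Actn3, Atp2a1 and Mybpc2, chosen after their values were seen). Among all genes tested, 3.11% were higher and 2.31% lower as deposited, and 6.96% and 8.51% after quantile normalization. Of 15 macrophage markers tested 2 rose, Lgals3 (log2 fold 1.27 ± 0.35, SE) and Cd68 (1.00 ± 0.24). Of 13 fibroblast markers tested 1 rose, Pdgfra (0.74 ± 0.20). The median log2 fold was 0.66 for the macrophage and 0.44 for the fibroblast list, and 0.33 and 0.01 without replicates 9 and 10. Without these samples Lgals3 (log2 fold 0.79, limma adjusted p = 0.0297) and Cd68 (0.76, limma adjusted p = 0.033) still passed. Pdgfra did not (0.53, limma adjusted p = 0.0735). Itgam, Itgax and Aif1 of the macrophage list were not tested. Of the markers of plasma and B cells 4 were tested. Among these 0 rose and Ighm, an immunoglobulin heavy chain, fell (log2 fold -0.84 ± 0.13), and those not tested included Igkc, Cd79a and Cd79b. Of 8 endothelial, 4 neutrophil and 4 Schwann cell markers tested 0 passed, and of 4 satellite cell markers Chodl rose (0.55 ± 0.12). In replicates 9 and 10 the sums of endothelial (4454 and 4270) and satellite cell markers (1384 and 1448) lay inside the wild-type range. So did those of neutrophil (483 and 431) and of plasma and B cell markers (492 and 529). The Schwann cell sum was 2180 in replicate 9, above the wild-type range of 770 to 1614, and 921 in replicate 10. In bulk muscle, more cells of a type and more RNA per cell cannot be told apart. The part of these markers in the differences of the ER genes was not tested beyond the fits without replicates 9 and 10.

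**Figure D3:**
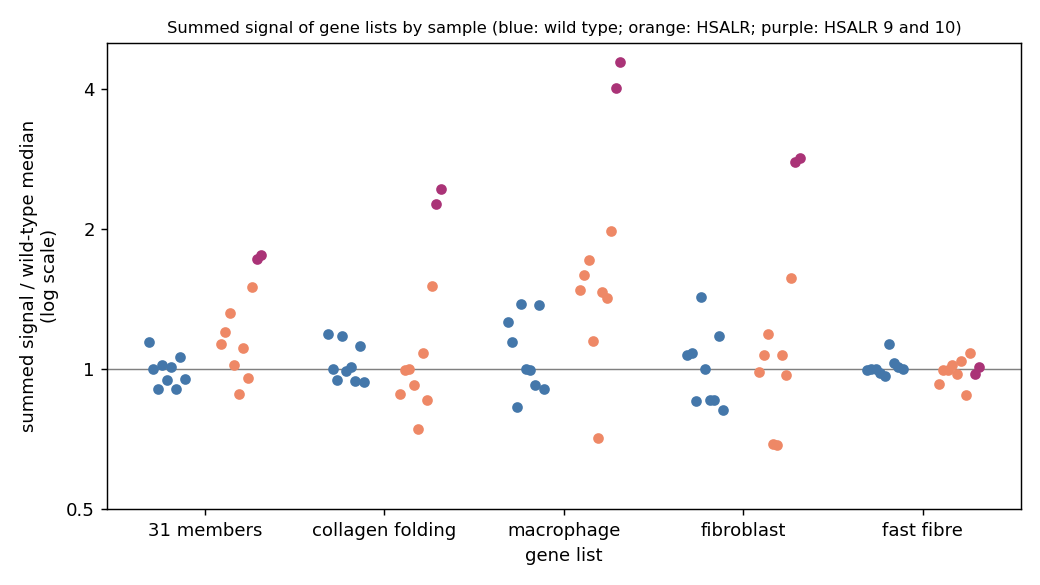
Summed signal of each gene list divided by its wild-type median (y axis, log scale), with 1 point per sample (blue wild type, orange HSALR, purple HSALR replicates 9 and 10). Of the 5 lists drawn, the purple points are highest for macrophage, fibroblast and collagen folding genes and the 31 ER genes. For fast-fibre genes, whose signals are high on the array scale, the purple points lie among the others.

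Among the transcription factors, Xbp1 gave the clearest difference. Its signal ran from 1762 through a median of 2099 to 2836 in wild type, and from 2633 through 3770 to 4614 in HSALR. The groups overlapped only through wild-type replicates 1 and 2 (2808 and 2836) and HSALR replicates 4 to 7 (2633 to 2809). The rise was 1.61-fold (log2 fold 0.69 ± 0.13, SE, n = 10 against 9, limma adjusted p = 0.00217), and 1.51-fold without replicates 9 and 10 (limma adjusted p = 0.00857). It was seen at all 4 probe sets of Xbp1, of which 3 passed. In 1 of these, with a log2 fold of 0.64 ± 0.10, every HSALR sample (2123 to 3338) lay above every wild-type sample (1489 to 2011). As deposited, 0.434% of all genes and 0 of the 31 separated in this way at their brightest probe set, with 0.295% of all genes separated downward. The remaining probe set showed a log2 fold of 0.50 ± 0.16 (limma adjusted p = 0.0675).

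Atf4, the factor translated when PERK or a related kinase is active, had a signal of 2163 to 2950 in wild type (median 2501) and of 1622 to 2952 in HSALR (median 2088). In 6 HSALR samples it lay below every wild-type sample, and in replicate 8 it was as high as the highest wild type. Its log2 fold of -0.22 ± 0.11 did not pass (limma adjusted p = 0.262). After quantile normalization it was -0.28 ± 0.06 and passed (limma adjusted p = 0.00544), with 7 of 10 HSALR samples below all wild type. A dimmer probe set of Atf4 showed a log2 fold of 0.04 ± 0.16. Ddit3 (CHOP), a factor downstream of Atf4, showed a log2 fold of 0.23 ± 0.14 (limma adjusted p = 0.366). Its lowest signal of all 19 samples was in HSALR replicate 9 (257), and replicate 10 (365) lay under the wild-type median of 382. Without these samples its log2 fold was 0.35 ± 0.12 (limma adjusted p = 0.142, or 0.0301 with quantile normalization). Ppp1r15a (GADD34), which restores translation through the phosphatase of eIF2, showed a log2 fold of 0.11 ± 0.16.

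The 3 sensors did not pass. Eif2ak3 (PERK) showed a log2 fold of 0.42 ± 0.18 (limma adjusted p = 0.176). Its signal was 118 to 261 in wild type and 180 to 328 in 8 HSALR samples, with 444 and 510 in replicates 9 and 10. For Atf6 the log2 fold was 0.20 ± 0.09 (limma adjusted p = 0.217), and for Ern1 it was 0.16 ± 0.10 (0.386). Ern1 was highest in HSALR replicate 2 (496) and inside the wild-type range in replicates 9 and 10 (347 and 322).

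The general chaperones rose in 2 of 3 cases. Hspa5 had signals from 1463 through 1834 to 2158 in wild type and from 1735 through 2508 to 4159 in HSALR. It was above all wild-type samples in 7 HSALR samples, and replicates 9 and 10 (4159 and 4048) were the highest. The rise was 1.45-fold (log2 fold 0.54 ± 0.15, limma adjusted p = 0.0362), and the fold was 1.3 without these 2 samples (limma adjusted p = 0.105). Of the dimmer probe sets of Hspa5, 1 showed a log2 fold of 0.45 ± 0.15 and another of 0.13 ± 0.12, and neither passed. Hyou1 (Grp170), which exchanges the nucleotide of BiP, had signals of 149 to 252 in wild type (median 187) and 186 to 381 in HSALR (median 302). Its rise was 1.43-fold (log2 fold 0.52 ± 0.14, limma adjusted p = 0.0338). Without replicates 9 and 10 its fold was 1.36 (log2 fold 0.44 ± 0.14, limma adjusted p = 0.102, or 0.0217 with quantile normalization). HSALR samples lay on either side of a gap, 6 above all wild type at 298 to 381 and 4 between 186 and 225. A dimmer probe set of Hyou1 showed a log2 fold of 0.24 ± 0.13. It did not pass as deposited (limma adjusted p = 0.314) or after quantile normalization (0.267). Hsp90b1 missed the threshold (log2 fold 0.35 ± 0.13, limma adjusted p = 0.129) and passed after quantile normalization (0.28 ± 0.09, limma adjusted p = 0.0417). Its dimmer probe set showed a log2 fold of 0.01 ± 0.17, and of -0.05 after quantile normalization.

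**Figure D4:**
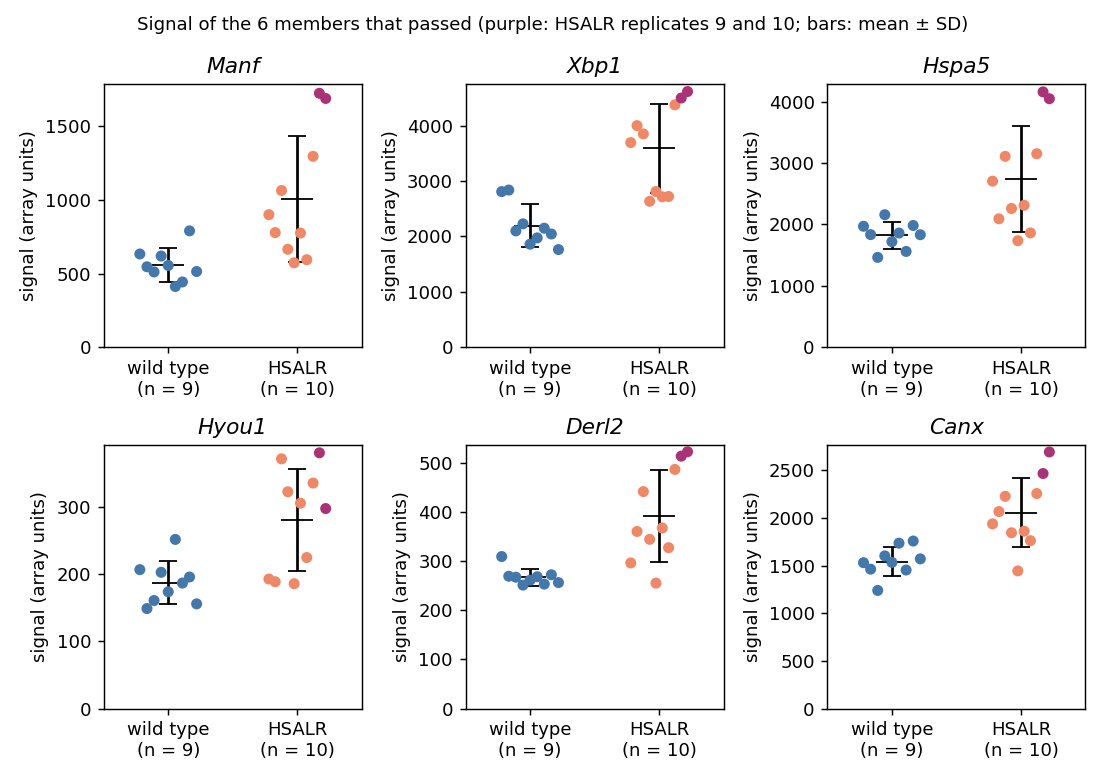
Signal (y axis, array units, from 0) of the 6 genes that passed, with 1 point per sample, the mean and SD as bars, and HSALR replicates 9 and 10 in purple. Of the other 8 HSALR samples, all 8 lie above the wild-type mean in Xbp1 and Manf and 7 in Hspa5, Hyou1, Canx and Derl2, and no gene separates the groups completely.

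None of the 4 co-chaperones passed as deposited. Sdf2l1, a BiP-associated protein of the ER lumen, came closest (log2 fold 0.52 ± 0.15, limma adjusted p = 0.0514). Its signal was 123 to 174 in wild type and 149 to 370 in HSALR, and 7 HSALR samples lay above all wild type. It passed after quantile normalization (limma adjusted p = 0.0125), where 9 of 10 HSALR samples exceeded all wild type. Dnajb9 (ERdj4), a J-protein of BiP, stood at 0.29 ± 0.11 on the log2 scale (limma adjusted p = 0.132, or 0.0466 after quantile normalization). Dnajb11 and Dnajc3, also J-proteins, had log2 folds of 0.31 ± 0.19 and 0.09 ± 0.12. Dimmer probe sets of Dnajc3 gave 0.14 to 0.32, and none passed.

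Manf had the largest fold of the 31 genes. Its signal was 412 to 790 in wild type (median 546) and 573 to 1724 in HSALR (median 839). The highest values were those of HSALR replicates 9 (1724), 10 (1689) and 8 (1296), and 5 HSALR samples lay above all wild type. The rise was 1.68-fold (log2 fold 0.75 ± 0.19, limma adjusted p = 0.0234), and 1.45-fold without replicates 9 and 10 (limma adjusted p = 0.0565, and 0.00885 with quantile normalization as well). Creld2, another stress-induced protein of the ER lumen, showed a log2 fold of 0.39 ± 0.17 (limma adjusted p = 0.205). Its 8 other HSALR samples had a median of 147, close to the wild-type median of 145, against 335 and 332 in replicates 9 and 10.

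The isomerases differed mainly in replicates 9 and 10. Pdia3 (ERp57), which works on glycoproteins with the lectins, had 442 to 728 in wild type and 480 to 1100 in 8 HSALR samples, with 1916 and 1959 in replicates 9 and 10. Its log2 fold was 0.48 ± 0.23 (limma adjusted p = 0.253), with 0.17 ± 0.15 without them. Pdia4, Pdia6 and P4hb, other disulfide isomerases, had log2 folds of 0.45 ± 0.21, 0.47 ± 0.20 and 0.28 ± 0.14, which became 0.21, 0.24 and 0.11. P4hb is also a subunit of the collagen prolyl hydroxylase. Ppib (cyclophilin B), a prolyl isomerase that also serves collagen, had 0.41 ± 0.18 and 0.20 without these samples. None of the 5 passed in either setting, and all 5 passed in the fit with the 3'/5' ratio (limma adjusted p from 0.0134 to 0.0485).

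Of the lectins, Canx rose and Calr did not pass. Canx had signals of 1239 to 1757 in wild type (median 1533) and 1444 to 2691 in HSALR (median 2002), with 9 of 10 HSALR samples above all wild type and replicate 5 below the wild-type median. The rise was 1.32-fold (log2 fold 0.40 ± 0.10, limma adjusted p = 0.0267), and 1.24-fold without replicates 9 and 10 (limma adjusted p = 0.0992, and 0.011 with quantile normalization as well). Of the dimmer probe sets of Canx 1 also passed (log2 fold 0.48 ± 0.12, limma adjusted p = 0.0215) and 1 did not (0.26 ± 0.12). Calr showed a log2 fold of 0.25 ± 0.13 (limma adjusted p = 0.263). Its 2 dimmer probe sets gave 0.21 and 0.19.

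At the translocon, the channel through which chains enter the ER, neither gene passed as deposited. Ssr1, a subunit of the translocon-associated complex, had 345 to 468 in wild type, 355 to 709 in 8 HSALR samples, and 1244 and 1246 in replicates 9 and 10. Its log2 fold was 0.55 ± 0.19 (limma adjusted p = 0.107) and 0.28 ± 0.12 without these samples (limma adjusted p = 0.237). After quantile normalization it passed with them (limma adjusted p = 0.0355) and without them (0.0252). The 3 dimmer probe sets of Ssr1 gave 0.03 to 0.14. Sec61b, a subunit of the channel, showed a log2 fold of 0.34 ± 0.17.

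In the degradation machinery Derl2 rose and the other 5 genes did not pass as deposited. Derl2, a membrane protein of the retrotranslocation complex, had a narrow range in wild type, 251 to 309 with a median of 267. In HSALR it ran from 255 through 364 to 522, and 8 of 10 samples exceeded all wild type, with replicates 1 (296) and 5 (255) inside its range. The rise was 1.41-fold (log2 fold 0.49 ± 0.12, limma adjusted p = 0.0142), and 1.31-fold without replicates 9 and 10 (limma adjusted p = 0.049). After quantile normalization its 10 HSALR values all exceeded its 9 wild-type values. Derl2 was the only 1 of the 31 genes to separate so, against 0.867% of all genes upward and 1.12% downward. Its dimmer probe set showed a log2 fold of 0.06 ± 0.13. Edem1, which extracts misfolded glycoproteins, narrowly missed (log2 fold 0.47 ± 0.14, limma adjusted p = 0.0541). A dimmer probe set of Edem1 passed (0.94 ± 0.22, limma adjusted p = 0.0115), with 25.4 to 62.0 in wild type and 53.5 to 245 in HSALR. Its mean log2 signal was 5.97 in wild type, under the filter cut of 6.09, and 6.91 in HSALR. It was therefore tested only through its HSALR signal, and its call adds no support to that of the brighter probe set.

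The ubiquitin ligase Syvn1 (HRD1), its partner Sel1l and the relative Derl1 had log2 folds of 0.09 ± 0.12, 0.01 ± 0.10 and 0.09 ± 0.10. The 5 probe sets of Sel1l ran from -0.32 ± 0.13 to 0.30 ± 0.13, and after quantile normalization 1 was lower (-0.38, limma adjusted p = 0.0117) and 1 higher (0.24, limma adjusted p = 0.0389). Herpud1, a stress-induced component of this complex, was with Atf4 1 of 2 genes with a log2 fold below 0 (-0.15 ± 0.11, limma adjusted p = 0.493). Its dimmer probe set gave the same value (-0.15 ± 0.13). Over all 31 genes, 34 dimmer probe sets of 19 genes were tested, of which 4 passed higher and 0 lower, against 2.86% and 2.2% of all probe sets. The 4 include the probe set of Edem1 that was tested only through its HSALR signal. Of the 34, 31 had a log2 fold above 0, against 60.4% of all genes at their brightest probe set. Their median was 0.18, and that of the 31 genes at their brightest probe set was 0.35. These medians cover unlike sets, because the 34 come from 19 genes, some of them with several dimmer probe sets.

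**Figure D5:**
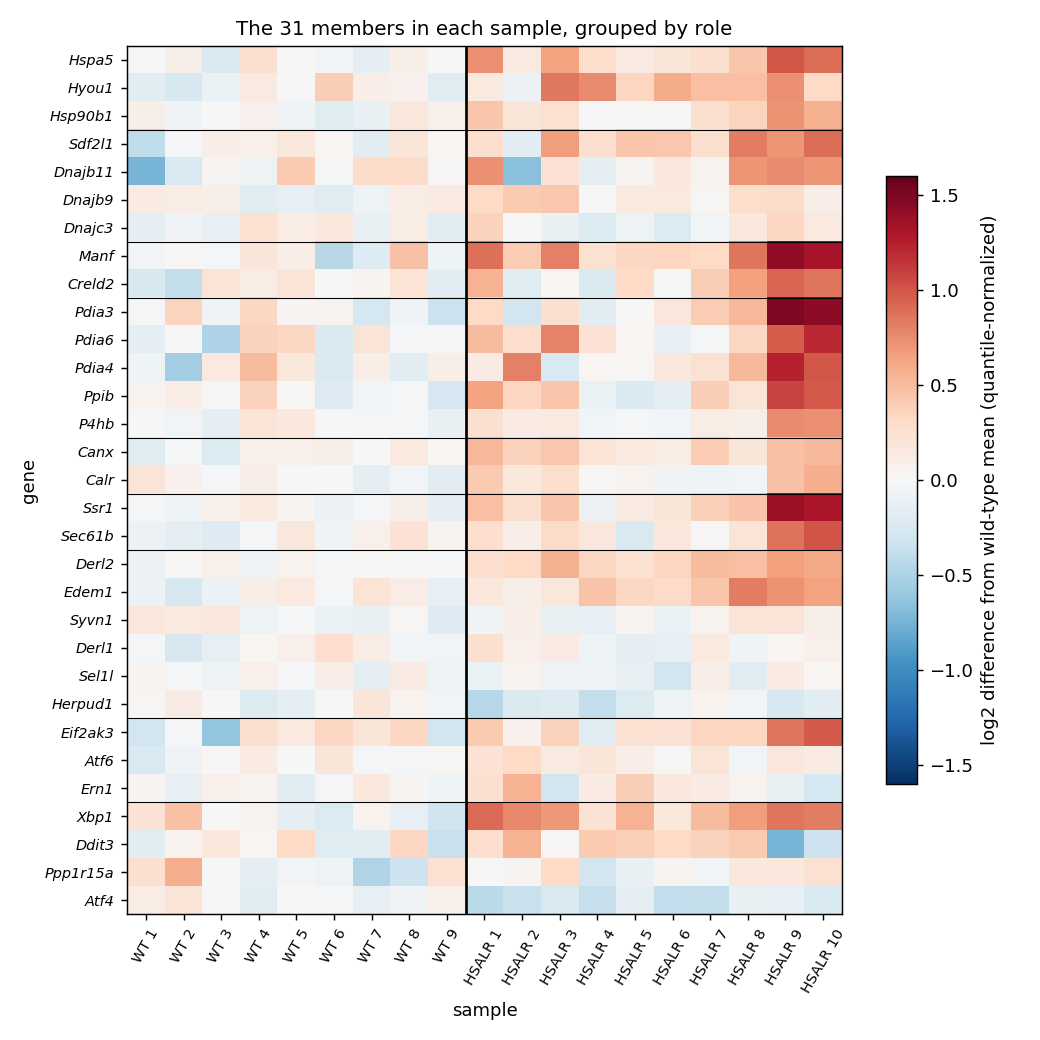
Log2 difference from the wild-type mean after quantile normalization (colour) for the 31 genes (rows, grouped by role) in 9 wild-type and 10 HSALR samples (columns). Xbp1, Derl2, Hspa5, Canx, Manf, Dnajb9 and Edem1 are above the wild-type mean in all 10 HSALR columns and Atf4 in 0, and the largest values are those of Pdia3, Manf and Ssr1 in HSALR replicates 9 and 10.

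Other genes of the pathway were counted beside the share of all genes that passed, 3.11% higher and 2.31% lower as deposited and 6.96% and 8.51% after quantile normalization. Of 15 further oxidative folding genes, 16 of glycoprotein folding and glycosylation, 22 of ER degradation, 19 sensors and regulators and 17 of collagen folding, 0 passed in limma, with medians of 0.13, 0.16, 0.05, 0.07 and 0.17 on the log2 scale. After quantile normalization 2 oxidative folding (Prdx4, Qsox1), 2 glycosylation (Uggt1, Ostc), 1 degradation (Selenos), 2 regulator (Bak1, Ppp1r15b) and 2 translocation genes (Sec11c, Ssr4) were higher. In the same setting 1 degradation (Ufd1), 1 collagen folding (Mia3) and 1 translocation gene (Srpr) were lower. All of these but Srpr were chosen after their values were seen. As deposited 0 of 20 translocation genes rose, and Srpr, the alpha subunit of the signal recognition particle receptor, fell (log2 fold -0.38 ± 0.11, limma adjusted p = 0.0476). Without replicates 9 and 10 Srpr did not pass (limma adjusted p = 0.118).

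Of 22 tested targets of the integrated stress response, most of them induced through Atf4, 0 rose and 1 fell. Over all genes 3.11% rose and 2.31% fell. The gene that fell was Chac1, a glutathione-degrading enzyme induced by Atf4 and Ddit3. Its signal was 998 to 2888 in wild type (median 2187) and 429 to 1892 in HSALR (median 1085), and 4 HSALR samples lay below every wild-type sample. The log2 fold was -0.97 ± 0.23 (limma adjusted p = 0.0148), and -1.08 without replicates 9 and 10 (limma adjusted p = 0.0102). The median of this list was -0.01. After quantile normalization Chac1, Cebpg and Vldlr were lower and Atf3, a stress-induced factor, was higher (log2 fold 0.75, limma adjusted p = 0.0208). As deposited Atf3 stood at 0.81 ± 0.24 (limma adjusted p = 0.0514). Cebpg, Vldlr and Atf3 were chosen after their values were seen. Of 16 cytosolic and mitochondrial heat shock genes, the small heat shock proteins Hspb1 (log2 fold 0.42 ± 0.11) and Hspb8 (0.36 ± 0.10) rose, with limma adjusted p of 0.0254 and 0.0456. The median of that list was 0.11. Hspb1 was not highest in replicates 9 and 10 (5952 and 5633), and the highest HSALR sample was replicate 3 (9288).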

How the data were processed

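Expression in EDL muscle was measured on 1-colour Affymetrix arrays, 1 per sample (9 wild type, 10 HSALR). The authors deposited linear signal intensities for 45101 probe sets, made with GCOS 1.4 per the submitters' processing notes. Neither the algorithm nor the scaling target is given in the sources used here. The trimmed means (2% at each end) of the arrays ranged from 157 to 244 and their medians from 39.7 to 71.9, so scaling was an alternative.

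Values were used as log2(value + 16), which understates changes of dim genes. Control probe sets (64) were removed, and those with a mean at or above the median (6.09) were kept (22519). Of all 45037 non-control probe sets, 34945 had 1 symbol, 932 several and 9160 none in the platform annotation, and 34741 symbols were updated through Entrez identifiers. HSALR and wild type were compared with limma 3.58.1 in R 4.3.3 (lmFit, eBayes, 2-sided) and Benjamini-Hochberg adjustment. The script was tested on simulated data. The genes and lists were chosen with earlier results of these data known, and counts and medians describe them beside all genes, without a list test. All 31 genes are named, and from each other list up to 4 genes that passed, by smallest p. Alternatives were pseudocounts of 1 and 64, no filter or the 11260 brightest probe sets, 2 scalings, the replicate number as a block, the 3'/5' ratio of control probe sets as a covariate, HSALR replicates 9 and 10 left out, and each sample left out. Figures were drawn with matplotlib 3.10.9. Protein sequences were not used here.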

Additional observations from a re-analysis of the deposited data

Results flagged for a closer look

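In Derl2, wild-type replicate 1 lay apart from the other wild-type samples, with a log2 signal of 8.34 (signal 309, against 251 to 272 in the other 8). This was the only 1 flagged among 62 sets of samples (31 genes in 2 groups), and about 1 in 20 is flagged by chance.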

How the results depend on the processing

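The count of ER genes that rose, 6 as deposited, became 11 after quantile normalization, 10 with it and without HSALR replicates 9 and 10, 2 without these samples alone, 17 with the covariate for RNA quality and 3 without a filter. The count that fell, 0, became 1 in each of the settings with quantile normalization. With the replicate block, which leaves out HSALR replicate 10, 2 rose (Xbp1 and Manf, against 228 of 11533 genes) and 716 probe sets passed, against 1140 as deposited. Same-numbered samples had residual correlations from -0.237 to 0.13. Of 9 wild-type samples, 1 correlated best with the HSALR sample of its own number. These values gave no sign that the numbers pair the samples, but they cannot exclude it. Over all probe sets 3343 passed after quantile normalization, 2345 with arrays centred on their median, 2465 with quantile normalization and without replicates 9 and 10, and 2169 with the covariate. Without 1 sample the counts were 3 to 10 ER genes higher, 0 lower, 858 (without wild-type replicate 3) to 2067 (without HSALR replicate 5) probe sets, and medians of 0.29 to 0.43. The cause of these shifts was not tested.

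Sel1l, at 0.01, turned to -0.05 after quantile normalization, -0.04 with centring, -0.08 without replicates 9 and 10 in both scalings, -0.03 with the replicate block, -0.01 over all its probe sets, and -0.03 to 0.05 without 1 sample. Dnajc3 turned to -0.02 without replicates 9 and 10 in both scalings, and Syvn1 to -0.0006 with quantile normalization as well. The other 28 genes kept their direction in all of these settings. No detection calls are used here, so signal over background is not known.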
